A study of Mus musculus with 16 samples.

Results

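Genes for voltage-gated and potassium ion channels were described in adrenal glands of female and male mice with and without Rspo1 gain-of-function (GOF). The rule for members uses the symbol and no measured value, though it was written with earlier results of these data known: protein-coding genes of the deposited count table whose symbol begins with Kcn, Cacna, Cacnb, Cacng, Scn plus a digit, or Hcn plus a digit. These symbols stand for potassium channel subunits, voltage-gated calcium channel subunits, voltage-gated sodium channel subunits and hyperpolarisation-activated cation channels. Of 138 matching genes, Kcnk3, Kcnk9, Kcnj5 and Cacna1h were left out by the rule, which left 134 members of 54838 genes in the table. A count was present in at least 1 library for 133 of them, and 111 had counts in enough libraries to be tested.

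Pore-forming subunits of these families let potassium, calcium or sodium ions cross the membrane, and auxiliary subunits set how many pores reach the membrane and how fast they open and close. In the adrenal medulla, chromaffin cells fire action potentials through sodium and calcium channels, and the calcium that enters releases catecholamines, while potassium channels end each spike. In the cortex, leak and voltage-gated potassium channels hold the membrane of steroid-producing cells at rest, and calcium entry on depolarisation raises aldosterone output.

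Messenger RNA was measured by bulk RNA sequencing in 16 adrenal libraries, each from another mouse; all mice were 4 weeks old and of mixed background. The groups were female control, female GOF, male control and male GOF, with 4 libraries each. R-spondin 1, the product of Rspo1, is a secreted amplifier of WNT signals, and the labels used here name neither the promoter or Cre line behind the gain of function nor any allele carried by the controls. The study compared the sexes in both genotypes and the genotypes in both sexes.

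Library totals ran from 31275146 to 43003968 counts, and channel members took 0.0987% to 0.208% of them. CPM, the unit of level below, is a gene's counts per 1e6 after scaling of library totals. Rspo1 lay between 3.19 and 40.4 CPM in female and 19.4 and 48.1 in male controls, and between 354 and 532 in female and 535 and 971 in male GOF, so every GOF library lay above every control. The 8 shared steroidogenic markers of the cortex were present in all libraries, at a summed 27490 to 43830 CPM. Male control 2 had a summed 8157 CPM over 8 liver markers, 71.5 CPM over 6 skeletal muscle markers and 1206 CPM over 8 neuron markers, against at most 54.8, 5.07 and 125.3 CPM in the other libraries. Female controls 1 and 3 had 809.5 and 140.7 CPM over 7 kidney tubule markers, against at most 2.16 CPM elsewhere. Male GOF 1 had 673 CPM over 6 macrophage markers, against at most 364 CPM in the other libraries. The number of members called in each comparison of groups is also given without male control 2 and female controls 1 and 3.

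In GOF adrenals of both sexes most channel genes that could be tested were lower than in controls. A member was called where the quasi-likelihood test of edgeR, adjusted over 18214 genes, gave a p under 0.05. In females 74 of 111 were called, against 39.6% of all tested genes: 9 higher, where 19.0% of all genes were, and 65 lower, where 20.6% were. In males 71 were called, against 36.9%: 6 higher (15.2% of all genes) and 65 lower (21.8%). The median log2 fold change of the members was -1.56 in females and -1.66 in males, and that of all tested genes was 0.052 and 0.00706. Setting the 5 members per comparison that had at most 3 counts in every library of a group to their bounds left both medians as they were. Control and GOF libraries were fully separated, with GOF below, for 65 members in females and 63 in males, and for 20.3% and 19.1% of all tested genes. Without female control 1 and male control 2 the counts were 68 in females and 66 in males, and without female control 3 as well they were 64 and 65. Calls over all tested genes went from 7217 to 6307 and 4554 in females, and in males from 6725 to 5147 and 4872. The 23 members that were not tested are in none of these numbers.

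**Figure D1:**
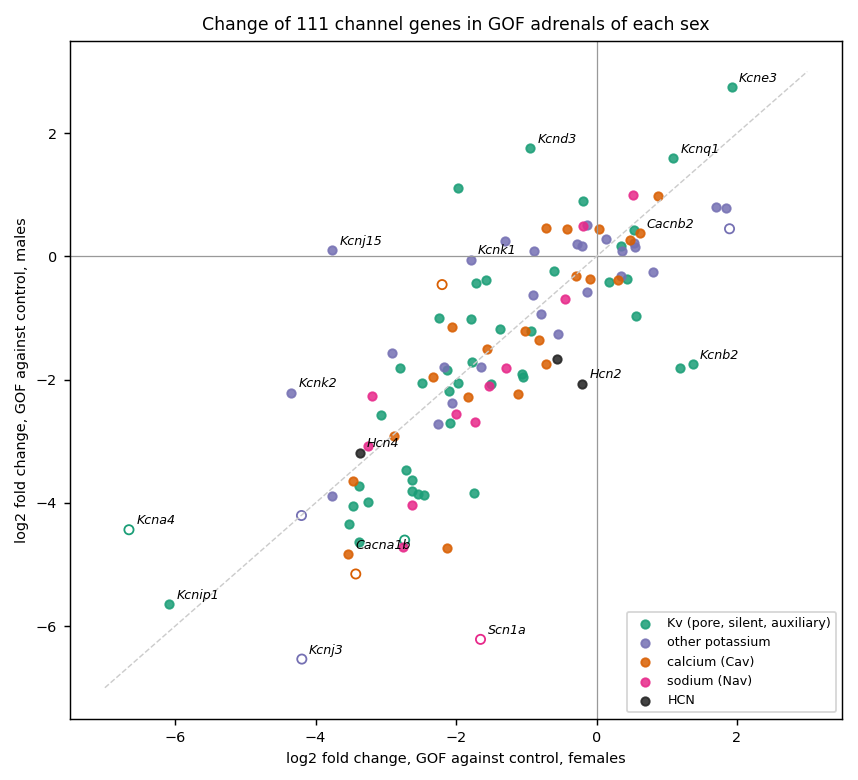
Log2 fold change of GOF against control for the 111 tested channel genes, in females (horizontal axis) and in males (vertical axis), coloured by class; the dashed line marks equal change, and open circles are genes with at most 3 counts in every library of a group, whose fitted fold is no bound. Most points lie below 0 on both axes, with Kcne3 and Kcnq1 above 0 on both axes, Kcnd3 above 0 in males alone and Kcnb2 above 0 in females alone.

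The female and male comparisons share no library. Calls in both sexes went to 63 members: 57 lower in both, 4 higher in both (Cacnb2, Cacng1, Kcne3 and Kcnq1) and 2 in opposite directions (Kcnb2 and Kcnd3). Of all tested genes 22.2% were called in both sexes, 14.5% lower in both, 7.19% higher in both and 0.598% in opposite directions. A call in 1 sex only, which is no test of a sex difference, was made for 11 members in females and 8 in males, and 29 had none. Across the 111 members the 2 log2 fold changes correlated with r = 0.767 (Pearson) and rho = 0.789 (Spearman), a description over genes that share libraries within each sex; over all 18214 tested genes r was 0.737 and rho 0.666.

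Marker genes of cell types moved in the same comparisons. All 10 chromaffin cell markers were called lower in GOF in both sexes, with medians of -3.81 and -4.09 on the log2 scale. Their summed level was 5498 to 12440 CPM in female controls and 238 to 891 in female GOF, and 9130 to 13020 in male controls and 467 to 1016 in male GOF. Of 8 neuron markers, 5 were lower in females and 8 in males; their sum was 43.6 to 95.9 CPM in female controls and 4.54 to 14.4 in female GOF, and 107.8 to 1206 in male controls and 13.3 to 26.1 in male GOF. Summed Schwann and sustentacular cell markers (7 genes) were at 27.5 to 90.8 CPM in female and 45.7 to 228 in male controls, and at 7.83 to 11.6 in female and 9.18 to 11.6 in male GOF; all 7 were lower in both sexes. Markers of other cell types moved too. All 6 capsule markers were called lower in both sexes, and their sum was 375 to 480.3 CPM in female and 671 to 862 in male controls, and 119.8 to 173 in female and 191 to 228 in male GOF. Of 6 adipocyte markers 5 were lower in females and 6 in males, with sums of 810.3 to 1302 CPM in female and 1108 to 2704 in male controls, and 329 to 541 in female and 286 to 375 in male GOF. Zona glomerulosa markers, of which 5 were tested, were lower for 3 in females and 5 in males, and summed to 769 to 847 CPM in female and 785 to 1251 in male controls, and to 353 to 519 in female and 255 to 383 in male GOF. Of 3 X-zone markers 2 were lower in females and 3 in males; they summed to 5520 to 8679 CPM in female controls and 24.3 to 749 in female GOF, and to at most 19.9 CPM in males. In males 5 of 6 smooth muscle, 8 of 8 liver and 3 of 4 tested skeletal muscle markers were also lower, and 1, 0 and 1 in females; their sums were 98.4 to 275, 3.18 to 8157 and 2.95 to 71.5 CPM in male controls, highest in male control 3 for smooth muscle and in male control 2 for the other lists, and 66.3 to 76.8, 0.906 to 54.8 and 1.99 to 2.28 in male GOF. Macrophage markers went the other way, with 3 of 6 higher in males and 1 in females. Of 7 kidney tubule markers 1 was tested, and it was lower in female GOF. The 7 summed to 0.194 to 809.5 CPM in female controls and to at most 0.438 in female GOF. In female GOF 3 kidney tubule markers and 1 skeletal muscle marker were at 0 throughout, and in male GOF 2 kidney tubule markers. None of the other markers listed here was at 0 in all libraries of a group. The part of these cell types in the channel results was not tested; in whole glands, fewer cells of a type and less RNA per cell cannot be told apart.

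Lower calls went to 18 of 26 tested Kv pore subunits in females and 19 in males, to 6 and 5 of 6 silent Kv subunits, to 7 and 6 of 12 Kv auxiliary subunits, and to 6 and 7 of 8 sodium channel pores. Among inward rectifiers 5 of 11 were called lower in females and 3 in males, among 2-pore-domain channels 3 of 7 in both sexes, and among calcium- or sodium-activated channels 4 and 3 of 11. Calcium channel pores gave 4 and 5 of 8 lower calls, alpha2delta subunits 3 and 2 of 4, gamma subunits 4 and 5 of 7, and beta subunits 1 of 4 in both sexes. Lower calls went to 3 of 4 sodium channel beta subunits in both sexes, and to 1 and 3 of 3 HCN channels. Over all tested genes 20.6% were lower in females and 21.8% in males, and the shares of beta subunits in both sexes and of inward rectifiers and calcium- or sodium-activated channels in males lie near these. Higher calls in females went to 3 calcium- or sodium-activated channels, 2 Kv pores and 1 each of the Kv auxiliary, inward rectifier, beta and gamma subunits, and in males to 3 Kv pores and 1 each of the Kv auxiliary, beta and gamma subunits, where 19.0% and 15.2% of all tested genes were higher. The regulator Kcnrg is counted with the Kv auxiliary subunits. Differences between subfamilies were not tested.

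**Figure D2:**
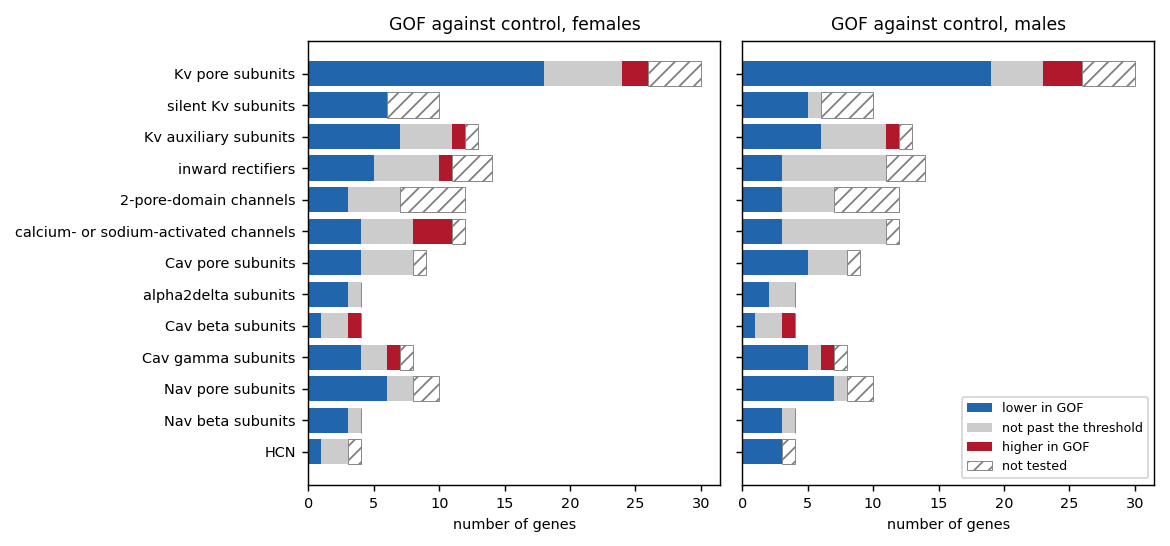
Number of channel genes in each subfamily (horizontal axis, genes) that were lower, not past the threshold or higher in GOF against control, with those not tested hatched; females left, males right. Lower calls make up the longest segment for the Kv and sodium channel pores in both panels.

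Kv pores are the delayed rectifiers, A-type and M-type channels that repolarise excitable cells. Kcnq5, a subunit of the M-current that restrains firing (ENSMUSG00000028033, chromosome 1, 21398403 to 21961942, minus strand; GRCm38 with GENCODE M21 annotation, as for all coordinates here), was at 1.1, 1.55, 0.707 and 1.23 CPM in female controls and 0.0877, 0.183, 0.0597 and 0.0857 in female GOF, and at 0.923, 15.6, 2.16 and 1.58 CPM in male controls and 0.291, 0.228, 0.050 and 0.241 in male GOF. Groups did not overlap in either sex, and male control 2 alone exceeded 3 CPM. The log2 fold change was -3.38 ± 0.86 (SE) for females (adjusted p 0.00652) and -4.63 ± 0.85 for males (0.000637) by edgeR; the male value was -2.93 without male control 2 and kept its call.

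Kcna4, the A-type channel Kv1.4, was at 0.483, 0.516, 0.154 and 0.264 CPM in female controls and was without a count in female GOF. It was at 0.769, 0.963, 0.711 and 0.788 CPM in male controls and at 0.0265, 0, 0.0751 and 0.0302 in male GOF. With at most 3 counts in every GOF library it was at least 4.27-fold lower in females and at least 9.77-fold lower in males, each against 3 counts per library. The Kv3 subunit Kcnc1, which serves fast repetitive firing, went from 1.88 ± 0.405 to 0.175 ± 0.115 CPM (SD, n = 4) in females and from 3.35 ± 0.602 to 0.251 ± 0.233 in males. Its male log2 fold change of -3.73 became -4.61 without male GOF 2. Kcnh3, of the ether-a-go-go family, went from 3.81 ± 1.13 to 0.334 ± 0.232 CPM in females, and in males from 6.94 ± 1.55 to 0.417 ± 0.133, with log2 fold changes of -3.47 (-4.10 without female GOF 2) and -4.04. All of these fell in both sexes with no overlap between groups. The relative Kcnh2 (ERG), among the most abundant members, did not pass in either sex: 54.1 ± 9.02 against 73.2 ± 29.1 CPM in females and 103 ± 19.6 against 79.7 ± 32.2 in males.

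Kcnq1 went the other way. It encodes a Kv pore that pairs with Kcne proteins (ENSMUSG00000009545, chromosome 7, 143106362 to 143427042, plus strand), and it stood at 11.8, 7.36, 11.1 and 11.6 CPM in female controls and 24.9, 22.8, 27.8 and 13.9 in female GOF. In males the values were 15.2, 14.8, 15.8 and 17.9 CPM in controls and 40.8, 76.2, 32.2 and 42.9 in GOF. Every GOF library was above every control of its sex. The log2 fold change was 1.09 ± 0.25 (SE) for females (adjusted p 0.00351) and 1.59 ± 0.25 for males (0.000209) by edgeR. Exons of the antisense gene Kcnq1ot1 overlap 2.96% of its exonic bases. Kcne3, the auxiliary subunit that holds Kcnq1 channels open (ENSMUSG00000035165, chromosome 7, 100176502 to 100184869, plus strand), also rose in both sexes: it was at 1.18, 1.52, 1.63 and 0.822 CPM in female controls and 8.53, 5.01, 3.02 and 3.06 in female GOF, and at 0.369, 1.66, 2.1 and 1.09 CPM in male controls and 2.7, 7.68, 16.6 and 8.12 in male GOF. The groups did not overlap, and the log2 fold changes were 1.93 ± 0.55, adjusted p 0.0128, and 2.75 ± 0.57, adjusted p 0.00166. No call of either gene was lost in the 16 fits that each left out 1 library.

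Among the Kv auxiliary subunits that fell, Kcnip1 had the lowest log2 fold change in both sexes. It encodes KChIP1, a calcium-binding partner of the A-type Kv4 channels (ENSMUSG00000053519, chromosome 11, 33629339 to 33993152, minus strand). It stood at 4.48, 10.7, 3.26 and 2.7 CPM in female controls and 0.146, 0.0916, 0.0299 and 0.0286 in female GOF. Male controls were at 6.27, 12.9, 7.23 and 1.66 CPM and male GOF at 0.212, 0.0571, 0.125 and 0.151. Every GOF library lay below 0.25 CPM and every control above 1.5. The log2 fold change was -6.08 ± 0.75 (SE) for females (adjusted p 2.67e-05) and -5.65 ± 0.71 for males (2.39e-05) by edgeR; the female value was -5.48 without female control 2. Kcnab1, a cytoplasmic beta subunit, fell from 3.4 ± 1.29 to 0.981 ± 0.395 CPM in females, and in males from 4.5 ± 1.07 to 2.23 ± 0.32, the latter with a log2 fold change of -1.01 that lost its call without male control 2 (-0.89, adjusted p 0.056). Silent subunits, which form no channel alone and modify Kv2 pores, fell too. Kcng2 went from 3.64 ± 1.93 to 0.431 ± 0.127 CPM in females, and in males from 4.02 ± 2.04 to 0.669 ± 0.166, and Kcng3 from 2.19 ± 0.508 to 0.765 ± 0.291 and from 4.11 ± 1.65 to 0.975 ± 0.322. Kcnf1 fell in females alone, from 0.75 ± 0.313 to 0.227 ± 0.0262 CPM, and was at 0.995 ± 0.132 and 0.741 ± 0.40 in males; its interaction did not pass (adjusted p 0.17).

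**Figure D3:**
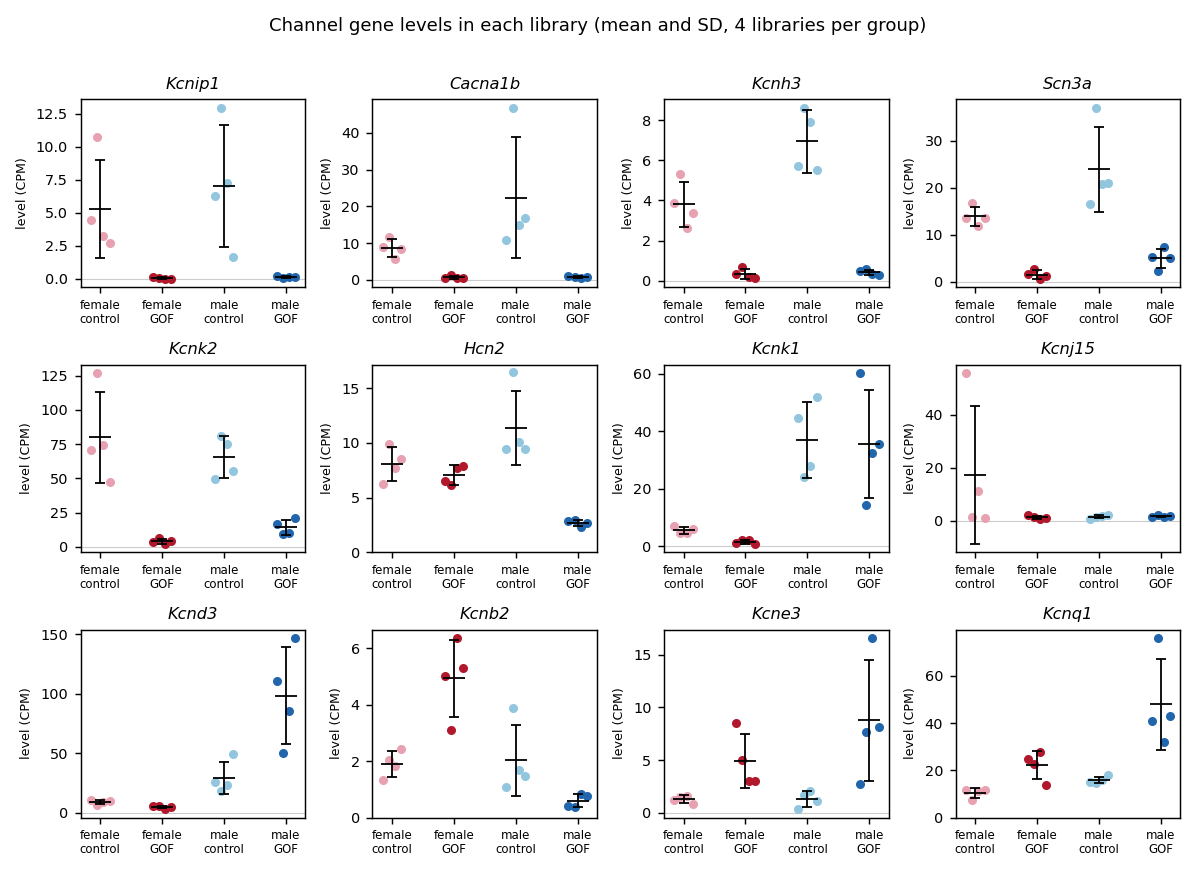
Level in CPM (vertical axis) of 12 channel genes in each library (points), with mean and SD (bars), for the 4 groups of 4 libraries. Kcnip1, Cacna1b and Kcnh3 lie near 0 in all GOF libraries, Kcne3 and Kcnq1 lie above controls in GOF of both sexes, and Kcnd3 and Kcnb2 go opposite ways in females and males.

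Promoter windows are shown for 5 members that the results turn on: Kcnip1 and Cacna1b, low in GOF of both sexes; Kcnk2 and Kcnd3, whose change differed between the sexes; and Kcne3, high in GOF. Each is the 250 bases before a RefSeq start on GRCm38, 5′ to 3′ on the gene's strand, chosen clear of the gene's GENCODE exons. Capitals mark the letters of 2 of 4 motifs searched on both strands: CAGCTG (an E-box, the site of many basic helix-loop-helix factors) and CTTTGAT (the core of a TCF/LEF site). The windows lie at chr11:33993194-33993443 (minus strand), chr2:24763153-24763402 (minus), chr1:189402274-189402523 (minus), chr3:105451640-105451889 (plus) and chr7:100178433-100178682 (plus).
Kcnip1: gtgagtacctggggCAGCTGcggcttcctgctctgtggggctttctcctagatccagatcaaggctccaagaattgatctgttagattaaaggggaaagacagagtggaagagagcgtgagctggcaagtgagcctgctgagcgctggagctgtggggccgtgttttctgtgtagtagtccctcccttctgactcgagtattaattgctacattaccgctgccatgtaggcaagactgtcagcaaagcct
Cacna1b: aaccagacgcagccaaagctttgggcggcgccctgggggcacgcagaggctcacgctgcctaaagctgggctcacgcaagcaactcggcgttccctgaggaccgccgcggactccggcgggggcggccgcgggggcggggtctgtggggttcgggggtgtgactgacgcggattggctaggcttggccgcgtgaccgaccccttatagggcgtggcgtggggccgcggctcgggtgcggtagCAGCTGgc
Kcnk2: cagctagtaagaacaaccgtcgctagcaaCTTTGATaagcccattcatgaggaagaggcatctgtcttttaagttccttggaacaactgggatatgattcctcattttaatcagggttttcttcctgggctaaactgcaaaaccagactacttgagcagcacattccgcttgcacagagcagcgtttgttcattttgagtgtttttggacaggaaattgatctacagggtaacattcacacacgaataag
Kcnd3: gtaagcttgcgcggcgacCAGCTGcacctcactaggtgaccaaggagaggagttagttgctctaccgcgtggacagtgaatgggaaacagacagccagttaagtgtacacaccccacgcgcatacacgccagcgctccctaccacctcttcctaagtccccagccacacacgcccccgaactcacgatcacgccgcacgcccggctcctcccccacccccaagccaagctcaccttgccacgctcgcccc
Kcne3: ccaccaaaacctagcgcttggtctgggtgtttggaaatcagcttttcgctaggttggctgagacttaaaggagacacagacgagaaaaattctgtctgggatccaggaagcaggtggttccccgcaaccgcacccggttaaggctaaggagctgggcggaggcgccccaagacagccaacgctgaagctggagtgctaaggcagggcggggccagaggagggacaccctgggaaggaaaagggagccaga
The Kcne3 window holds none of the 4 motifs, and its RefSeq start lies 2181 bases inside the gene from the GENCODE start. The RefSeq starts used for Kcnd3 and Kcnip1 lie 440 and 41 bases before their GENCODE starts. Of the members 100 had a RefSeq window. CAGCTG, which is its own reverse complement, was in a window of 27.0% of these, and of 35.9% of the 39 with a window among those lower in both sexes, against 14.7% of 27025 genes with any window. CTTTGAT was in 3.0% of members and 3.72% of all genes, AAGGTCA (a site of the SF-1 type of nuclear receptor) in 6.0% and 4.7%, and TTCAGCACC (part of the site of the repressor REST) in 1.0% and 0.348%. Among the 39 lower in both sexes these shares were 5.13% (2 members), 2.56% (1 member) and 2.56% (1 member). A gene counted where any of its windows held the letters. Members had 136 windows for 100 genes, those lower in both sexes 56 for 39, and all genes 32851 for 27025. The median GC content was 58.2% in members' windows and 52.4% in all. The part of GC content and of window number in these shares was not tested. A match describes the letters of the window and shows no binding.

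Inward rectifiers hold the resting potential, and some answer to G proteins or ATP. The G protein-gated subunits Kcnj3 (GIRK1) and Kcnj6 (GIRK2) fell in both sexes. Kcnj6 was at 0.698, 1.39, 0.892 and 1.26 CPM in female controls and 0.0292, 0.0687, 0.0299 and 0.0857 in female GOF, and at 1.23, 2.16, 1.64 and 2.28 CPM in male controls and 0.238, 0.0285, 0.025 and 0.0906 in male GOF; groups did not overlap. It was at least 12.8-fold lower in females, where GOF libraries held at most 3 counts, and had a log2 fold change of -4.21 ± 0.53 (SE), adjusted p 2.42e-05, in males (-5.21 without male GOF 1). Kcnj3 was at 0.591, 1.03, 0.677 and 0.411 CPM in female controls and 0.861, 5.22, 1.11 and 1.74 in male controls, with at most 3 counts in every GOF library. The bound was at least 8.17-fold lower in females and at least 27.0-fold in males, or 15-fold without male control 2. An antisense gene overlaps 31.1% of its exonic bases, and the strand setting of the counts is not given, so its reads could be shared.

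Kcnj15 (Kir4.2, best known from kidney tubules) was called lower in female GOF, a call that was lost without female control 1. That library and female control 3 held kidney transcripts, whose part was not tested. Female controls stood at 55.7, 1.35, 11.2 and 0.822 CPM, with the high values in libraries 1 and 3, against 2.1, 1.21, 0.687 and 1.09 in female GOF. The log2 fold change of -3.76 (adjusted p 0.00881) became -1.80 (adjusted p 0.063) without female control 1 and 0.22 without female controls 1 and 3 and male control 2. Kcnj1 and Kcnj16, tubular relatives with counts in too few libraries for the test, reached 32.6 and 79.9 CPM in female control 1. Kcnj4 (Kir2.3) rose in females, from 0.107, 0.355, 0.154 and 0.264 to 0.438, 1.17, 0.567 and 0.686 CPM, a log2 fold change of 1.70 that lost its call in 7 of 16 fits without 1 library, with values from 1.31 to 2.02.

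Among the tested 2-pore-domain channels, which carry leak current, Kcnk2 had the lowest log2 fold change in both sexes. It encodes TREK-1, a leak channel of cortical steroid-producing cells that hormones and stretch regulate (ENSMUSG00000037624, chromosome 1, 189207930 to 189402273, minus strand). It was at 70.8, 127, 74.3 and 47.5 CPM in female controls and 3.36, 6.23, 2.12 and 3.89 in female GOF. Male controls were at 49.7, 81.2, 75.2 and 55.6 CPM and male GOF at 16.4, 9.56, 9.76 and 20.9. No control overlapped a GOF library in either sex. The log2 fold change was -4.35 ± 0.40 (SE) for females (adjusted p 3.14e-06) and -2.21 ± 0.36 for males (0.000247) by edgeR, and both calls held in all 16 fits without 1 library. An antisense gene overlaps 12.2% of its exonic bases. Kcnk1 (TWIK-1) fell in females alone, from 6.92, 4.42, 4.71 and 5.78 to 1.23, 2.2, 2.09 and 0.772 CPM (-1.79 ± 0.42, adjusted p 0.00388). In males it stood at 44.4, 24, 27.8 and 51.9 and 60.2, 14.4, 32.2 and 35.6 CPM, a log2 fold change of -0.06, and the interaction did not pass (adjusted p 0.0994). Kcnk5 (TASK-2) did not pass in either sex, at 23 ± 7.17 and 20.9 ± 16.9 CPM in females, and 12.8 in female GOF without library 2.

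Channels opened by calcium couple calcium entry to repolarisation. The auxiliary subunit Kcnmb2, which makes BK channels inactivate, fell in both sexes with no overlap: it was at 4.75, 7.71, 3.14 and 3.67 CPM in female controls and 0.555, 0.412, 0.149 and 0.286 in female GOF, and at 7.47, 10.3, 7.57 and 7.17 CPM in male controls and 0.556, 0.257, 0.55 and 0.815 in male GOF. Log2 fold changes were -3.76 ± 0.42 (SE), adjusted p 1.11e-05, and -3.89 ± 0.41, adjusted p 5.4e-06. Kcnn3 (SK3) and the sodium-activated Kcnt1 also fell in both sexes, with log2 fold changes of -2.06 and -0.79 in females and -2.38 and -0.94 in males, and Kcnt2 in females alone. Kcnma1, Kcnmb1 and Kcnn2 rose in females. The BK pore Kcnma1 went from 61, 44.9, 51.9 and 64.1 to 81.5, 103, 87.8 and 52.1 CPM, a log2 fold change of 0.55 that lost its call in 4 of 16 fits without 1 library, down to 0.37 without female GOF 2. Kcnmb1, a BK subunit typical of smooth muscle, rose from 0.483, 0.226, 0.554 and 0.469 to 0.701, 1.26, 2.75 and 1.57 CPM (1.84 ± 0.48, adjusted p 0.00745). The 6 smooth muscle markers summed to 65.1 to 74.2 CPM in female controls and 38.8 to 67.8 in female GOF, and the part of this cell type was not tested. The SK channel Kcnn2 went from 89, 101, 108 and 108 to 121, 171, 219 and 200.5 CPM without overlap, a log2 fold change of 0.81 that lost its call in 9 of 16 fits, with values from 0.65 to 0.96. In males none of these 3 risers passed.

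Of the calcium channel pores, Cacna1a, Cacna1b, Cacna1d and Cacna1g fell in both sexes and Cacna1i in males alone. Cacna1b, the N-type pore that drives transmitter release (ENSMUSG00000004113, chromosome 2, 24603887 to 24763152, minus strand), was at 9.07, 11.6, 5.6 and 8.36 CPM in female controls and 0.643, 1.33, 0.448 and 0.514 in female GOF. In males it was at 10.8, 46.8, 15.1 and 17 CPM in controls, highest in library 2, and at 1.14, 0.799, 0.475 and 0.725 in GOF. Groups did not overlap. Log2 fold changes were -3.54 ± 0.49 (SE) for females (adjusted p 7.29e-05) and -4.83 ± 0.52 for males (6.27e-06) by edgeR, or -4.18 in males without control 2. Cacna1d (Cav1.3) went from 24.9 ± 4.35 to 4.95 ± 1.61 CPM in females, and in males from 43.5 ± 6.78 to 11.2 ± 0.857 (SD, n = 4), log2 fold changes of -2.33 and -1.96. Cacna1c (Cav1.2), the other abundant L-type pore, did not pass: 104 ± 12.2 against 129 ± 11.1 CPM in females and 164 ± 40.8 against 126 ± 33 in males. Cacna1e and Cacna1f did not pass either.

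Subunits that accompany the calcium pores split. Of the alpha2delta subunits, which bring pores to the membrane, Cacna2d2 fell from 9.93, 11.1, 6.92 and 6.28 to 0.672, 1.1, 0.537 and 0.772 CPM in females, and in males from 9.07, 17.9, 12 and 11.8 to 1.09, 0.657, 1.5 and 0.785. The groups did not overlap, and the log2 fold changes were -3.46 ± 0.33 and -3.65 ± 0.33 (SE; adjusted p 3.14e-06 and 1.45e-06). Cacna2d1, the most abundant member by length-scaled level averaged over all 16 libraries, did not pass: 288 ± 21.4 against 236 ± 34.7 CPM in females and 268 ± 30.7 against 214 ± 43.2 in males. Of the beta subunits, Cacnb3 fell, from 21.4 ± 3.33 to 12.1 ± 2.95 CPM in females, and in males from 36.9 ± 13.9 to 14.5 ± 2.94. Cacnb2 rose in females without overlap, from 44.6, 43.5, 49.8 and 53.1 to 67.1, 68.1, 74.1 and 82.9 CPM (0.61 ± 0.10, adjusted p 0.000224). In males it rose from 45.9, 45.2, 48.2 and 54.4 to 65.8, 66.9, 66.2 and 52.5 CPM (0.38 ± 0.10, adjusted p 0.00798), where GOF library 4 lay among the controls.

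Most gamma subunits, several of which act on glutamate receptors more than on calcium channels, fell. Cacng7 went from 10.6 ± 2.46 to 2.54 ± 0.727 CPM in females, and in males from 18.2 ± 6.29 to 8.2 ± 2.75, and Cacng4 had log2 fold changes of -1.83 and -2.28. Cacng2 (stargazin) was at 1.29, 2.92, 0.803 and 1.39 CPM in male controls and had at most 3 counts in every male GOF library, at least 19.3-fold lower; in females it had a log2 fold change of -3.43, or -4.19 without female GOF 2. Cacng5 was at 0.277, 7.15, 0.402 and 0.462 CPM in male controls, and its male log2 fold change of -4.74 was -2.31 without male control 2. Cacng1, known from skeletal muscle, rose at low levels from 0.23 ± 0.064 to 0.425 ± 0.0223 CPM in females, and in males from 0.318 ± 0.106 to 0.63 ± 0.143. Its female call was lost in 12 of 16 fits without 1 library (values from 0.71 to 1.0) and its male call in 2, to 0.78 without male control 2 and 0.83 without male GOF 3. Cacng8 did not pass in either sex.

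Most sodium channel pores start action potentials; Scn7a, which encodes the sodium sensor Nax, is not known to. Scn2a, Scn3a, Scn7a, Scn8a and Scn9a were among those that fell in both sexes. Scn3a (Nav1.3; ENSMUSG00000057182, chromosome 2, 65457118 to 65567627, minus strand) was at 13.6, 16.7, 11.8 and 13.5 CPM in female controls and 1.55, 2.7, 0.627 and 1.11 in female GOF. In males it was at 16.6, 37, 20.9 and 21.1 CPM in controls and 5.25, 2.34, 7.28 and 5.13 in GOF, and groups did not overlap in either sex. Log2 fold changes were -3.20 ± 0.42 (SE), adjusted p 4.56e-05, and -2.26 ± 0.40, adjusted p 0.000462. Scn8a (Nav1.6) went from 5.52 ± 0.447 to 0.569 ± 0.337 CPM in females, and in males from 9.07 ± 3.12 to 1.07 ± 0.149, log2 fold changes of -3.26 and -3.07. Of the beta subunits, Scn3b fell from 13.1, 10.9, 8.49 and 13.2 to 1.7, 3.25, 0.866 and 1.54 CPM in females, and in males from 17.4, 59.8, 22.5 and 22.2 to 2.15, 2.28, 1.3 and 1.72 without overlap. Scn4b and Scn4a did not pass.

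A few sodium and potassium channel genes were high in male control 2, the library with the most neuron marker counts. Scn9a (Nav1.7, of sympathetic and sensory neurons) was at 1.84, 28.4, 4.11 and 2.53 CPM in male controls and at 0.45, 0.228, 0.325 and 0.392 in male GOF. Its male log2 fold change was -4.71, and -3.01 without that library. In females Scn9a was at 1.5, 2.23, 1.63 and 1.55 CPM in controls and 0.263, 0.549, 0.0597 and 0.114 in GOF, a log2 fold change of -2.75 that was -3.57 without female GOF 2. Scn1a was at 0.492, 6.16, 0.154 and 0.326 CPM in male controls with at most 3 counts in every male GOF library: at least 21.6-fold lower, or 3.92-fold without male control 2, and it did not pass in females. Kcna6 was at 2.31, 14.1, 3.34 and 3.1 CPM in male controls; its log2 fold change of -3.84 became -2.87, and an antisense gene overlaps 39.6% of its exonic bases. The calls of these 3 genes in males held without that library. In females Kcna6 had a log2 fold change of -1.75, lost in 6 of 16 fits without 1 library (values from -2.29 to -1.51).

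**Figure D4:**
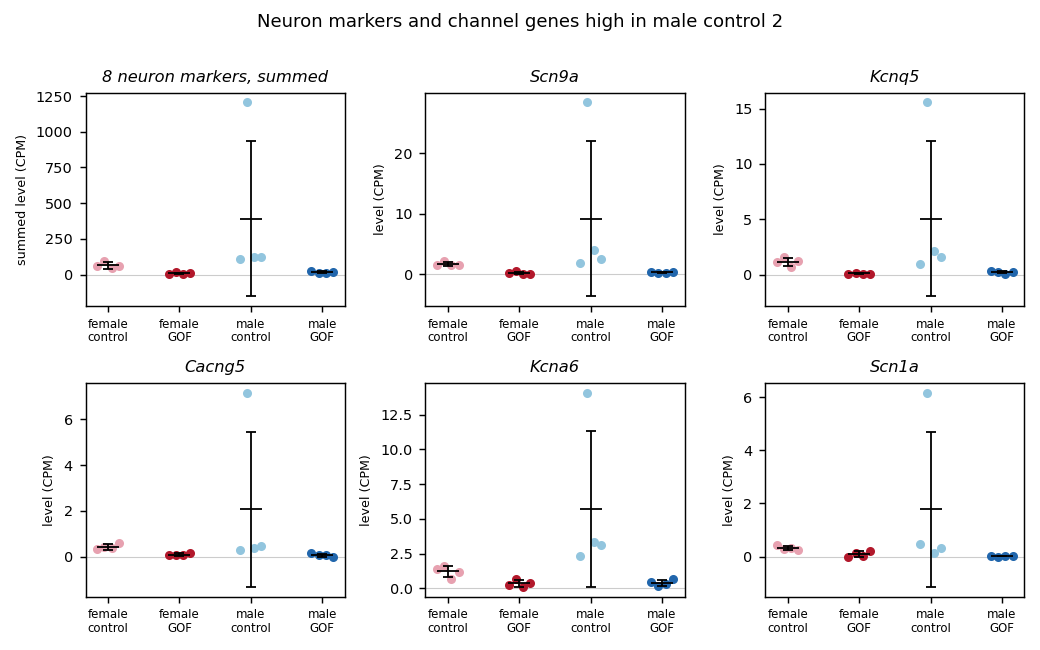
Summed CPM of 8 neuron markers and CPM of 5 channel genes (vertical axes) in each library (points), with mean and SD (bars), for the 4 groups of 4 libraries. Male control 2 lies far above the others in each panel, at 1206 CPM for the markers and 28.4 CPM for Scn9a.

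Of the HCN pacemaker channels, Hcn4 fell in both sexes: it was at 2.79, 7.07, 5.57 and 4.25 CPM in female controls and 0.409, 0.732, 0.388 and 0.343 in female GOF, and at 3.97, 9.42, 7.82 and 6.3 CPM in male controls and 0.848, 0.457, 0.775 and 0.936 in male GOF, without overlap. Log2 fold changes were -3.37 ± 0.38 (SE), adjusted p 1.15e-05, and -3.18 ± 0.37, adjusted p 1.12e-05. Hcn2 and Hcn3 fell in males and did not pass in females. Hcn3 went from 5.57, 15.1, 3.21 and 6.14 to 2.15, 3.34, 2.13 and 1.87 CPM in males, with GOF library 2 above the lowest control, a log2 fold change of -1.66 that was -1.07 without male control 2, and exons of Pklr overlap 17.1% of its exonic bases on the other strand.

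Abundance was compared between genes with the deposited FPKM, which are scaled to gene length. By mean over the 16 libraries the order of 11 of the 12 most abundant members was Cacna2d1 (74.4 FPKM), Kcnn2 (52.7), Kcnh2 (41.0), Kcnq1 (28.7), Cacnb2 (28.6), Kcnma1 (26), Kcnk2 (23.5), Cacna1c (19.8), Cacnb3 (12.8), Kcnd3 (11.5) and Kcnk1 (11.4). Among these 11, Cacna2d1 and Kcnn2, and Cacna1c and Cacnb3, differed by more than the SD of either gene over the 16 libraries; all other neighbours in the order lay closer together than the SD of either gene, which includes the differences between groups. In female controls the order was led by Cacna2d1 at 82.7 ± 7.2 FPKM, Kcnk2 at 45.2 ± 18.1 and Kcnn2 at 40.4 ± 3.6, and in female GOF by Kcnn2 at 73.6 ± 17.3 and Cacna2d1 at 70.5 ± 10.2, with Kcnk2 at 2.32 ± 1.04 (SD, n = 4). In male controls Cacna2d1, at 77.5 ± 8.26 FPKM, was followed by Kcnh2 at 53.3 ± 11.5, Kcnn2 at 50.7 ± 15.6 and Kcnk2 at 37.5 ± 8.41. In male GOF Kcnq1 reached 58.8 ± 22.7 FPKM, near Cacna2d1 at 67.1 ± 13.4. Of the 12 members, 4 were called higher and 5 lower in female GOF, and 3 and 3 in male GOF. Of the other 99 tested members, 5 were higher and 60 lower in females, and 3 and 62 in males. Of all tested genes 19.0% were higher and 20.6% lower in females, and 15.2% and 21.8% in males. The difference between the 12 and the 99 was not tested. The summed level of all members was 1193 to 1445 CPM in female and 1667 to 2180 in male controls, and 977 to 1086 in female and 1176 to 1300.0 in male GOF, with no overlap within a sex.

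**Figure D5:**
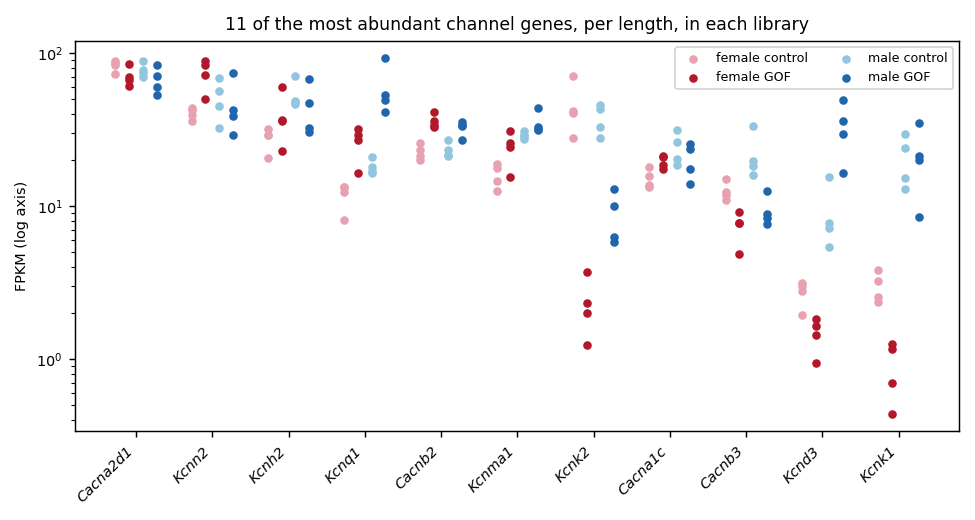
FPKM (vertical log axis) of 11 of the 12 most abundant channel genes in each of the 16 libraries, coloured by group. Cacna2d1 lies between 53.5 and 88.9 FPKM in all libraries, while Kcnk2, Kcnd3 and Kcnk1 spread most widely.

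Whether the GOF change differed between the sexes was tested with the interaction of sex and genotype. It passed for 5 of 111 members, against 4.21% of all tested genes: Kcnd3, Kcnk2 and Kcnd2 with a higher value in males (1.59% of all genes), and Kcnb2 and Hcn2 with a lower one (2.61%). Without female control 1 and male control 2 the count was 4, and without female control 3 as well it was 1. Calls over all tested genes went from 766 to 448 and 175 in these fits. Fits without 1 library each gave 3 to 9, with 9 without male GOF 2 and 3 without female control 2 or 3, female GOF 3 or 4, male control 4, or male GOF 1 or 4.

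Kcnd3 encodes the A-type pore Kv4.3 (ENSMUSG00000040896, chromosome 3, 105452330 to 105674002, plus strand). It was at 10.2, 6.49, 9.23 and 9.62 CPM in female controls and 5.2, 5.68, 3.02 and 4.54 in female GOF. In males it was at 25.7, 17.9, 23.4 and 49 CPM in controls and 111, 50.3, 85.2 and 147 in GOF. The male GOF libraries were the highest of all 16, and the female GOF libraries the lowest. In males it rose by 1.76 ± 0.34 (SE; adjusted p 0.000938); the female log2 fold change was -0.94 ± 0.35 (adjusted p 0.0422), a call lost in 7 of 16 fits without 1 library with values from -1.10 to -0.83. The difference between the 2 was 2.71 ± 0.48, adjusted p 0.00649 (edgeR), and held in all 16 fits. Its relative Kcnd2 (Kv4.2) rose in males, from 7.26 ± 1.41 to 13.6 ± 3.77 CPM (adjusted p 0.00332), and was at 8.84 ± 0.108 and 7.78 ± 1.98 CPM in females. The difference of 1.09 ± 0.29 (adjusted p 0.0478) lost its call in 13 of 16 fits, with values from 0.91 to 1.26.

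Kcnb2, the delayed rectifier Kv2.2 (ENSMUSG00000092083, chromosome 1, 15287254 to 15723750, plus strand), rose in females and fell in males. It was at 1.34, 2.03, 1.81 and 2.44 CPM in female controls and 5.03, 3.09, 6.36 and 5.29 in female GOF. Male controls were at 1.08, 3.88, 1.67 and 1.47 CPM and male GOF at 0.424, 0.371, 0.851 and 0.755, and groups did not overlap in either sex. The log2 fold changes were 1.37 ± 0.39 (SE), adjusted p 0.0115, and -1.75 ± 0.41, adjusted p 0.00364, and their difference -3.12 ± 0.56, adjusted p 0.00649 by edgeR, held in all 16 fits. Hcn2 did not pass in females, at 6.23, 9.91, 7.72 and 8.57 CPM in controls and 6.49, 6.11, 7.7 and 7.92 in GOF, and fell in males from 9.47, 16.4, 10.1 and 9.46 to 2.83, 2.97, 2.35 and 2.72. The difference of -1.86 ± 0.28, adjusted p 0.00249, held in all 16 fits. Kcnk2, described above, fell further in females; the difference of 2.13 ± 0.50 (adjusted p 0.0288) lost its call in 7 of 16 fits, with values from 1.82 to 2.48.

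Between male and female controls, 35 of 111 members were called, 33 higher and 2 lower in males, against 23.4% of all tested genes, 13.5% higher and 9.89% lower, and the median log2 fold change was 0.78 (all tested genes 0.0778). The count moved with the libraries left out. It fell in the fits listed next and rose elsewhere, with the range given in the last section. It was 17 without male control 2, 12 without female control 3, 23 without female control 1, 22 without female control 4, 13 without female control 1 and male control 2, and 7 without female control 3 as well. Calls over all tested genes fell in the same fits, from 4267 to 3289, 2650, 3848, 3418, 3083 and 1648. Without male control 1 they rose to 4881. With a term for the 4 ranges of numbers in the sample titles the members called were 7 and all genes called 1311, but sex and range are largely mixed up: a single range holds mice of both sexes. In the same comparison the 10 chromaffin markers summed to 5498 to 12440 CPM in female and 9130 to 13020 in male controls, and 1 of the chromaffin and 8 of 8 neuron markers were called higher in males. Also higher in males were 5 of 8 liver, 4 of 7 Schwann and sustentacular cell, 4 of 6 capsule, 4 of 6 macrophage, 3 of 6 smooth muscle, 2 of 4 tested skeletal muscle and 2 of 6 adipocyte markers, and all 3 X-zone markers and the 1 tested kidney tubule marker were lower. The part of these markers was not tested.

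The sex difference held in all 16 fits for 10 members. Apart from Kcnmb4, for which only a bound is given, it was largest among them in Kcnj4, Kcnk1 and Kcnd3. Kcnk1 was at 5.46 ± 1.14 CPM in female and 37 ± 13.3 in male controls (2.76 ± 0.41, SE; adjusted p 0.000307 by edgeR), and every male was above every female. Kcnj4 was at 0.22 ± 0.111 and 3.58 ± 1.79 CPM (4.01 ± 0.63, adjusted p 0.000406), and Kcnd3 at 8.88 ± 1.64 and 29 ± 13.7 (1.71 ± 0.34, adjusted p 0.00271). Kcnmb4, a neuronal BK subunit, had at most 3 counts in every female control and 0.40, 0.438, 0.34 and 0.734 CPM in male controls, at least 5.34-fold higher; antisense genes overlap 31.5% of its exonic bases. Kcnma1, Cacna1d and Cacng8 were also higher in males in all 16 fits, with log2 fold changes of 0.87, 0.80 and 1.45. Calls lost without male control 2 included those of Scn9a (2.42 to 0.71), Kcnq5 (2.14 to 0.44), Kcna6 (2.23 to 1.26), Kcnj3 (1.72 to 0.87), Kcnab2 (1.37 to 0.55), Cacna1b (1.37 to 0.72), Scn3b (1.42 to 0.86) and Cacnb3 (0.79 to 0.49). The other calls lost in that fit are not listed. The 2 lower members were Kcnj15 (-3.57), lost without female control 1 at -1.61, and Hcn3 (-1.05), lost in 8 of 16 fits and at -1.65 (adjusted p 0.00046, edgeR) without male control 2.

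In GOF mice, 29 members were called between the sexes, 26 higher and 3 lower in males, against 29.6% of all tested genes, 13.3% higher and 16.3% lower, with a median log2 fold change of 0.49 (all tested genes 0.0264). The count was 32 without female control 1 and male control 2 and 31 without female control 3 as well; these libraries are in neither group but share the estimate of the spread. Calls over all tested genes were 5470 and 5168 in these fits, against 5394 with all libraries. With the title number range as a covariate it was 8, and calls over all tested genes were 1336. Kcnk1 was at 1.23, 2.2, 2.09 and 0.772 CPM in female and 60.2, 14.4, 32.2 and 35.6 in male GOF, and Kcnd3 at 5.2, 5.68, 3.02 and 4.54 and 111, 50.3, 85.2 and 147; neither overlapped. Their log2 fold changes were 4.49 ± 0.45 (SE), adjusted p 1.05e-05, and 4.41 ± 0.38, adjusted p 2.71e-06. Also higher in males in all 16 fits were Kcnj4 (3.11), Cacng8 (1.87), Kcnk2 (1.85), Scn3a (1.73), Kcnf1 (1.69), Cacng7 (1.69), Cacna1d (1.18) and Kcnq1 (1.10). Kcnb2 (-3.03), Hcn3 (-2.16) and Hcn2 (-1.37) were lower in males, all without overlap. Kcna4 is among the 26, with at most 3 counts in every GOF library of both sexes, so no fold is given for it; its call was lost in 9 of 16 fits without 1 library. No chromaffin marker was called between the sexes in GOF mice. All 6 endothelium markers, 5 of 6 capsule markers and 4 of 6 macrophage markers were called higher in males; their sums were 445 to 501 CPM in female and 620.2 to 823.5 in male GOF for endothelium, 119.8 to 173 and 191 to 228 for capsule, and 155 to 237 and 312 to 673 for macrophages. Their part in the channel results was not tested.

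Of the 23 members that could not be tested, 20 had a mean under 1 CPM in every group, and Kcna10 had no count. The exceptions were high in libraries that stood apart, Kcnj1 and Kcnj16 in female control 1 and Kcnk10 at 4.90 CPM in male control 2. Scn11a and Kcnh8 also had their highest value in male control 2, at 1.31 and 1.98 CPM.

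Genes that work with these channels but are not members were described from a list of 40, of which 37 were tested. In female GOF 4 were higher and 17 lower than in controls, and in male GOF 3 and 22, where 19.0% and 20.6% of all tested genes were higher and lower in females and 15.2% and 21.8% in males. The partners had medians of -0.557 and -0.843 on the log2 scale. The sodium leak channel complex fell as a whole in males: Nalcn went from 31.6 ± 12 to 3.22 ± 0.672 CPM, its partners Unc79 from 12.5 ± 2.4 to 1.78 ± 0.418 and Unc80 from 50.5 ± 13.6 to 3.19 ± 1.16, and Fam155a from 18.3 ± 4.7 to 0.852 ± 0.213 (SD, n = 4). In females Nalcn, Unc79 and Unc80 fell as well, by 2.71, 1.78 and 3.48 on the log2 scale, while Fam155a was at 15.6 ± 5.88 and 9.54 ± 4.47 CPM and did not pass. Its difference between the sexes was -3.72 (adjusted p 0.00102, edgeR). Dpp6, the partner of Kv4 pores beside Kcnip1, also fell, in females from 10.4 ± 2.56 to 1.03 ± 0.615 CPM, and in males from 19.6 ± 12.7 to 1.11 ± 0.209. The small GTPase Rrad, which restrains calcium channels, rose from 1.64 ± 0.704 to 4.76 ± 0.746 and from 4.82 ± 1.84 to 9.07 ± 1.54.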

How the data were processed

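Adrenal glands were frozen, RNA was purified with RNeasy columns and libraries, with an RNA integrity cut-off of 7, were sequenced as 150 bp pairs, per the labels' protocols. The authors deposited raw counts per gene and FPKM values, which are counts scaled to gene length and library total. Bowtie2 2.2.3, TopHat2 2.0.12, HTSeq 0.6.1 and DESeq 1.18.0 are named in the submitters' processing notes, without roles; the genome build and strand setting are not given in the sources used here. Of 54838 identifiers in the deposited table, 54809 are in GENCODE M21 (GRCm38), and the gene length implied by counts and FPKM equals the mean M21 transcript length within 1 base in 97.8% of 34180 genes. M21 gave symbols, coordinates and exon overlaps, and RefSeq's GRCm38 table gave promoter windows.

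Counts of all 16 libraries were fitted with edgeR 4.0.16 (R 4.3.3; TMM factors, filterByExpr by group, robust quasi-likelihood fit, 1 mean per group), with 5 contrasts and Benjamini-Hochberg adjustment over 18214 genes. Depth was 31275146 to 43003968 counts per library. A group with at most 3 counts in every library is given a bound against 3 counts per library. The p-values set differences of group means against the spread between mice within groups, estimated over all 16 libraries. Bounds cover counting error only. Alternatives were DESeq2 1.42.0, limma 3.58.1 on log2 FPKM and voom, other scalings and filters, a title number covariate, and libraries left out.

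Genes named were the 12 highest and 12 lowest called log2 fold changes of each comparison with at least 1 CPM in a group, members with a called interaction, the 12 most abundant by FPKM, and both ends of each subfamily. Kcnj1, Kcnj16, Kcnk10, Scn11a and Kcnh8, which were not tested, Kcnn3, Kcnt1, Kcnt2, Cacna1a, Cacna1g, Cacna1i, Scn2a and Scn7a, and the partner genes given with values, were singled out after their values were seen. Some members are counted but not reported here by name. The rule for members and the lists were written with earlier results of these data known.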

Additional observations from a re-analysis of the deposited data

Results flagged for a closer look

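Named members were picked largely by fold change, which 1 outlying library can enlarge. The chance rate of about 1 in 20 therefore does not hold for the sets below. Among 173 sets of 4 libraries (a named member in a group with a library of at least 1 CPM), 18 held a library far from the other 3. Male control 2 was the high library in 10 of them: Scn9a at 28.4 CPM (others 1.85 to 4.11), Kcnq5 at 15.6 (0.923 to 2.16), Scn1a at 6.16 (0.155 to 0.492), Cacng5 at 7.15 (0.277 to 0.462), Kcna6 at 14.1 (2.31 to 3.34), Kcnab2 at 42.8 (7.47 to 12.2), Scn3b at 59.8 (17.4 to 22.5), Hcn2 at 16.5 (9.46 to 10.1), Cacnb4 at 4.32 (1.85 to 1.98) and Kcnmb2 at 10.3 (7.17 to 7.57). This library also held the liver, neuron and skeletal muscle markers given with the libraries, and their part was not tested.

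Male GOF 1 was high for the leak channels Kcnk13, at 4.69 CPM (others 1.69 to 1.94), and Kcnk6, at 10.6 (6.93 to 7.15); its summed macrophage markers, at 673 CPM, were the highest of the male GOF libraries. Female control 1 was high for Scn4b, at 11.1 CPM (4.83 to 5.78), and female control 3 for Kcnk5, at 33.7 (18.6 to 19.8), and low for Cacna2d1, at 256 (297 to 302). Kcnh2 was high in male control 4, at 132.5 CPM (90.2 to 95.7). Low libraries were male GOF 4 for Cacnb2, at 52.5 CPM (65.8 to 66.9) and female control 2 for Kcnq1, at 7.36 (11.1 to 11.8).

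The GOF change differed between the sexes, by the interaction in edgeR, for 5 of 111 members, against 4.21% of all tested genes: the male minus the female log2 fold change was 2.71 for Kcnd3, 2.13 for Kcnk2, 1.09 for Kcnd2, -1.86 for Hcn2 and -3.12 for Kcnb2. The call was lost in 13 of 16 fits without 1 library for Kcnd2 and in 7 for Kcnk2.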

How the results depend on the processing

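Of 3723 values that the 133 called values of named members took under the alternatives, 3366 kept direction and call, 355 lost the call and 2 changed sign; 68 called values were called under every alternative that gave a value. The sign changed for Kcnj15 without female controls 1 and 3 and male control 2, to 0.22 in female GOF against control and to 0.45 in male against female controls; this alternative was chosen after seeing the data. With at least 10 counts in every library, which tests fewer genes, 46 of 69 tested members were called in females (6 higher, 40 lower) and 45 in males (5 higher, 40 lower), against 38.8% and 36.9% of all genes tested there, and with limma on log2(FPKM + 1) 44 of 75 in females (5 higher, 39 lower), against 43.1%. For male against female controls the count of 35 became 22 at an absolute log2 fold change of at least 1, 19 with no filter, 23 with only the groups compared, 7 with the title number range as a covariate, 13 without female control 1 and male control 2, and 7 without female control 3 as well; all genes called went from 4267 to 1405, 3051, 3544, 1311, 3083 and 1648. For the sexes in GOF the count of 29 became 8 with that covariate (all genes 5394 and 1336). The interaction count of 5 became 8 with DESeq2, 3 with no filter, 3 with limma on log2(FPKM + 1), 3 with the covariate and 1 without the 3 libraries, and all genes called went from 766 to 1432, 408, 650, 442 and 175. The cause of these shifts was not tested. The 16 fits without 1 library each gave 62 to 78 calls in females, 66 to 75 in males, 12 to 50 between controls, 26 to 34 between GOF groups and 3 to 9 for the interaction, the 9 without male GOF 2; over all genes they gave 5709 to 7466, 5215 to 6711, 2650 to 4881, 4243 to 5660 and 377 to 953 calls. No paired analysis was possible because the labels give no replicate numbers, and replicates are numbered by accession order alone. At these totals, members under about 1 CPM rest on few counts, and their folds are the least precise.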
